A study of Mus musculus with 13 samples.

Results

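The report covers 35 mouse genes of glucose uptake, glycolysis, lactate handling, glycogen metabolism and the creatine kinases, chosen by gene symbol as pairs and families of muscle and nonmuscle forms. All 35 were found among the 23366 genes of the deposited count table. The table holds RNA-seq counts, that is, the number of reads assigned to each gene, for 13 libraries of primary muscle cells. They comprised 2 libraries of dICR/dICR myotubes, 5 of wild-type myotubes, 2 of dICR/dICR myoblasts and 4 of wild-type myoblasts, all on a mixed strain background. The allele dICR removes the imprinting control region of the Igf2 and H19 domain, and the dICR/dICR cells are homozygous for it. Primary myoblasts came from hind limb muscle of pups at postnatal day 2 to 3 and were cultured with 10% calf serum and fibroblast growth factor under 10% CO2. Cells called myotubes had spent 24 hours in medium with 1% horse serum. The labels do not state the number of pups, litters or cultures behind a group, nor whether animals were pooled, so p-values measure only the spread between these libraries, which may be technical.

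Glycolysis splits glucose into pyruvate and yields ATP without oxygen, and lactate dehydrogenase turns pyruvate into lactate so that the pathway can go on. Skeletal muscle also stores glucose as glycogen, which phosphorylase breaks down when the fibre contracts, and it buffers ATP through creatine phosphate, made and used by creatine kinase. Many of these steps have a form that mature muscle favours and another that proliferating or nonmuscle cells favour. Counted below as muscle forms are 11 members: Slc2a4, Hk2, Pfkm, Pgam2, Eno3, Pygm, Gys1, Phka1, Phkg1, Ckm and Ckmt2. Aldoa, Ldha and Slc16a3, the muscle side of their pairs, are left out of that count.

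Sequence is shown first for the members whose values depend most on where reads are placed. Of the 35 members, 4 had more than 50% of the 75-base pieces of their coding sequence also present, letter for letter, in another annotated gene: Pgk1 (100%), Pgam1 (100%), Gapdh (94%) and Eno1 (75.2%). Another 20 members had no such piece, and the remaining 11 had at most 24.6%. Of the 121 other genes that share such a piece with Gapdh, 113 are annotated as pseudogenes. For Pgam1, the nonmuscle phosphoglycerate mutase, a 75-base stretch of coding sequence that recurs in other genes is given (GRCm38, GENCODE, coding strand). The 35 bases in capitals are the length of the shortest read named in the labels.
Pgam1, chromosome 19, coding bases 564 to 638: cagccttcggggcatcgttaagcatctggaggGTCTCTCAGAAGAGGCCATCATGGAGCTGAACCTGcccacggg
The capitals of Pgam1 occur in 3 other genes and its whole stretch in 2.

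Promoters are shown for Ckm, Pgam2, Pygm and Gyg, 4 of the members that were called higher in wild-type myotubes than in wild-type myoblasts in both sets of libraries of different depth and that carry an E-box of the kind bound by myogenic factors. Each is the 250 bases before the start of the transcript in RefSeq (GRCm38.p6), read on the gene's own strand, and capitals mark CAGCTG or CAGGTG.
Ckm, chr7:19410844-19411093 (+ strand): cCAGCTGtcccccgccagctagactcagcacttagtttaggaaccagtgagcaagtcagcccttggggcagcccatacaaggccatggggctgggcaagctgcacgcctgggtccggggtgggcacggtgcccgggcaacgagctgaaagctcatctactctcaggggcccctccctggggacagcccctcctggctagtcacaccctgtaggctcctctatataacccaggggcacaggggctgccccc
Pgam2, chr11:5803797-5804046 (- strand): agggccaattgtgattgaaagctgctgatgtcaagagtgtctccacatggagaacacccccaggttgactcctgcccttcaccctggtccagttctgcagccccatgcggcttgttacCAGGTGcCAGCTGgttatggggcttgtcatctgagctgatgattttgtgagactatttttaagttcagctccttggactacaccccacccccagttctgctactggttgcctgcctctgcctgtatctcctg
Pygm, chr19:6384158-6384407 (+ strand): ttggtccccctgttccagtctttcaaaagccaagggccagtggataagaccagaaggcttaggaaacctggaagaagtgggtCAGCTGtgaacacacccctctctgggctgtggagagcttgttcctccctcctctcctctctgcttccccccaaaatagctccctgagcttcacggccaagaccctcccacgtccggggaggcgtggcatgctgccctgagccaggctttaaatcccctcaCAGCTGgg
Gyg, chr3:20155117-20155366 (- strand): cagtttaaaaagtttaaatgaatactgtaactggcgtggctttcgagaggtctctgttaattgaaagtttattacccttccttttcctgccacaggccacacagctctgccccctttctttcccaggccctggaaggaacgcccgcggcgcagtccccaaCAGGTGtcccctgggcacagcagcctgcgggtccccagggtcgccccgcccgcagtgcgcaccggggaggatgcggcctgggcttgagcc
CAGCTG, which reads the same on both strands, lay 249 bases before the start in Ckm, 125 bases before it in Pgam2, and 168 and 8 bases before it in Pygm. CAGGTG lay 132 bases before the start in Pgam2 and 90 bases before it in Gyg. Pfkm, which was also called higher in both sets, has more than 1 RefSeq promoter, and these are not printed. CAGGTG lay 177 bases before the start in one of them and CACCTG 40 bases before the start in another. RefSeq gave a promoter for 34 of the 35 members, the exception being Slc2a4, and 46 promoters in all. CAGCTG was found in 7 of the 46 promoters, against 13% of all 32851 promoters of the same length. CAGGTG or its reverse complement CACCTG was found in 8 of the 46, against 17.2% of all promoters. For both E-boxes the share in the members was close to that of all promoters. A match to the MEF2 motif was found in 1 of the 46, that of Ckb, against 0.508% of all promoters. The hypoxia core ACGTG was found in 18 of the 46 (16.6% of all promoters) on either strand. The related GCGTG was found in 24 of the 46 (28.2% of all promoters). An occurrence of either core can overlap its own reverse complement. These counts describe letters in a window and are not evidence of binding.

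The 13 libraries fell into 2 sets by depth. The deep set, 7 libraries with 35.56 to 56.44 M counts, held both dICR/dICR myotube libraries, wild-type myotubes 1 to 3 and wild-type myoblasts 1 and 2. The shallow set, 6 libraries with 5.31 to 10.91 M counts, held wild-type myotubes 4 and 5, both dICR/dICR myoblast libraries and wild-type myoblasts 3 and 4. The sets were read from the totals and are not in the labels, which name 2 sequencing instruments without saying which library was read on which. Differentiation in dICR/dICR therefore cannot be told apart from the set. H19, the check of the genotype labels, had 57.5 and 52.4 CPM (counts scaled to a common library size) in dICR/dICR myotubes, while wild-type myotubes had 15910 to 40500 CPM. It had 53.8 and 71.5 CPM in dICR/dICR myoblasts, while wild-type myoblasts had 2345 to 18490 CPM. Myotube markers summed to 17800 and 40400 CPM in dICR/dICR myotubes and 50100 to 108000 CPM in wild-type myotubes. They summed to 9610 and 3680 CPM in dICR/dICR myoblasts, 18800 and 22500 CPM in shallow wild-type myoblasts and 4880 and 3840 CPM in deep wild-type myoblasts. Myoblast markers summed higher in myotubes, to 4450 to 6560 CPM in wild-type myotubes and 1690 to 3400 CPM in wild-type myoblasts. Their sums were 3420 to 4740 CPM in dICR/dICR myotubes and 1800 to 1840 CPM in dICR/dICR myoblasts. As a sum, that list did not mark the myoblast stage. Each of the 7 lists for other cell types summed to at most 84.1 CPM in any library. In bulk RNA, fewer cells of a type and less RNA per cell cannot be told apart. The 35 members took 0.517 to 0.946% of the counts of a library.

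Pgk1, phosphoglycerate kinase, and Pgam1, with all their coding sequence shared, were among the members that differed most between the 2 sets. In wild-type myoblasts Pgam1 averaged 525 CPM in the deep set and 18.8 CPM in the shallow set, a 27.9-fold difference between cells of the same label. Pgk1 averaged 1160 CPM and 48.3 CPM there, a 24-fold difference. Gapdh, glyceraldehyde phosphate dehydrogenase, was 4.82-fold higher in the deep set. In wild-type myotubes the same ratios were 21.4 for Pgam1, 18.3 for Pgk1 and 3.21 for Gapdh. Eno1, the nonmuscle enolase, had 2 to 9 counts in each of the 13 libraries, whatever the depth. Gm5506, which RefSeq lists as Eno1b, a close copy of Eno1, averaged 360 CPM in deep and 16.6 CPM in shallow wild-type myoblasts. It was named after its values were seen. The levels of these genes are uncertain because the sources used here do not give the counting mode. Members without shared pieces also differed between the sets in wild-type myoblasts: Pgam2, the muscle phosphoglycerate mutase, was at 14.4 and 14.9 CPM in the deep libraries and 133 and 137 CPM in the shallow ones. Comparisons are therefore given over all libraries and again within a set wherever 1 set holds both groups.

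**Figure D1:**
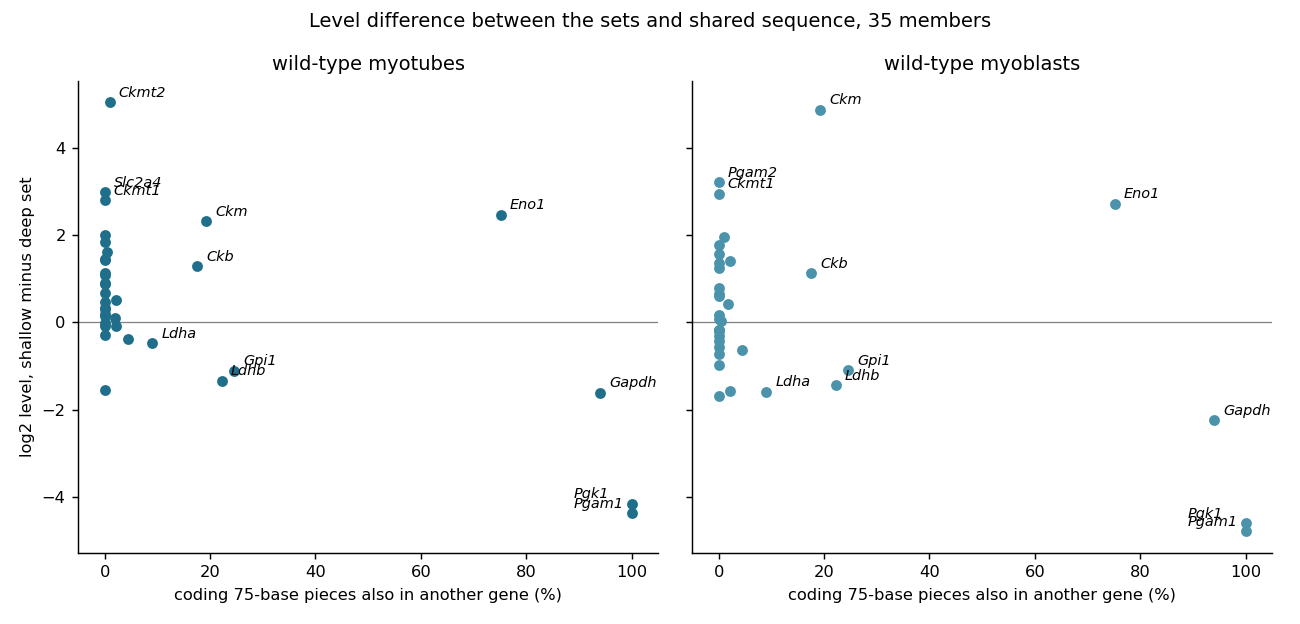
Difference in level between the shallow and the deep set (log2, shallow minus deep) against the share of coding 75-base pieces that also occur in another gene, for the 35 members in wild-type myotubes (left) and wild-type myoblasts (right); 1 point is 1 gene. Pgk1 and Pgam1, at 100%, lie more than 4 log2 units below 0 in both panels, while Ckmt2 in myotubes and Ckm in myoblasts lie far above it with little shared sequence.

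The first comparison asked how the members changed when wild-type myoblasts differentiated. Over all libraries 7 of 35 members (20%) were called by edgeR's quasi-likelihood test at a Benjamini-Hochberg adjusted p under 0.05, against 19.1% of all genes tested. Of these, 3 rose (8.86% of all genes rose) and 4 fell (10.2% of all genes fell). Leaving out 1 library at a time gave 5 members (without wild-type myoblast 1) to 11 members (without wild-type myotube 2). The genes called ranged from 1769 to 3574 in these fits. Within the deep set 16 of 33 members tested were called, 9 higher and 7 lower, against 22.2% of all genes (11.6% higher, 10.6% lower). Within the shallow set 16 of 33 were also called, 9 higher and 7 lower, against 22.6% of all genes (11.2% higher, 11.4% lower). The 2 sets called 10 of the 33 members in the same direction (30.3%), against 1456 of 12491 genes tested in both (11.7%). The 6 that rose in both sets were Slc2a4, Pfkm, Pgam2, Pygm, Gyg and Ckm. The 4 that fell in both were Slc2a1, Hk1, Pfkl and Ldhb. The signs alone were alike in 24 of 33 members (72.7%), against 75.4% of all genes. The median log2 fold change of the members was -0.41 in the deep set and 0.62 in the shallow set, against 0.02 and 0.00 for all genes. Scaling by library size alone moved the median of all genes by -0.28 and called 1 member higher and 6 lower over all libraries, where the reported scaling gave 3 and 4, and the share of all called genes that rose was 21.6% against 46.4%.

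**Figure D2:**
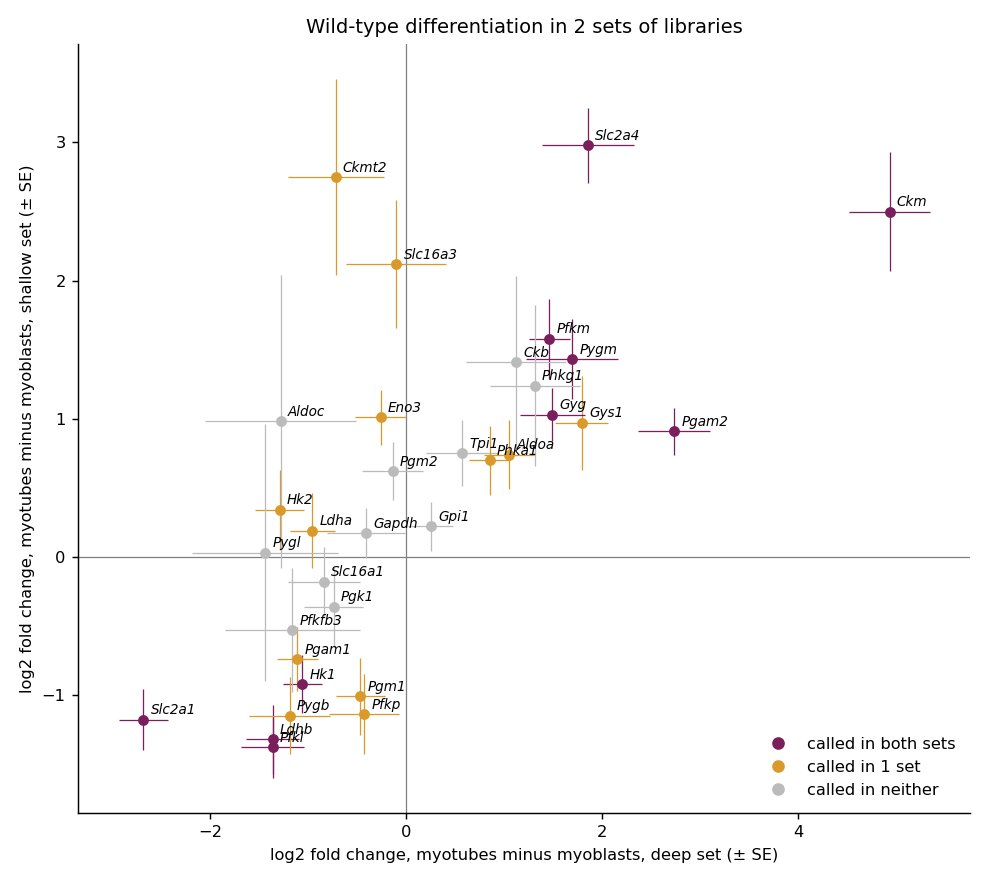
Log2 fold change of 33 members in wild-type differentiation (myotubes minus myoblasts) within the deep set (horizontal axis, 3 myotube and 2 myoblast libraries) and within the shallow set (vertical axis, 2 and 2 libraries), with standard errors (SE). The 10 members called in both sets lie at the upper right and lower left. Of these, Ckm lies farthest right, followed by Pgam2, Slc2a4 lies highest and Slc2a1 farthest left. Ckmt2 and Slc16a3 are high on the vertical axis alone.

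Of the glucose transporters, Slc2a4 rose and Slc2a1 fell in both sets. Slc2a4, the insulin-responsive transporter of muscle and fat, was at 4.8, 12.2 and 11.6 CPM in deep and 58.3 and 82.9 CPM in shallow wild-type myotubes, against 2.57 and 2.84 CPM in deep and 9.62 and 8.43 CPM in shallow wild-type myoblasts. All myotube libraries lay above the myoblast libraries of their own set. It rose by 2.56 ± 0.81 on the log2 scale over all libraries (SE, adjusted p = 0.0439), by 1.85 ± 0.47 in the deep set (adjusted p = 0.0295) and 2.98 ± 0.27 in the shallow set (adjusted p = 0.000581). Its call over all libraries was lost in 10 of 13 fits that left out 1 library (adjusted p = 0.0517 to 0.122). Slc2a1, the transporter of basal uptake in many cell types, was at 24.3, 16.6 and 21.7 CPM in deep and 23.1 and 15.7 CPM in shallow myotubes, against 115 and 158 CPM in deep and 45.6 and 44 CPM in shallow myoblasts. The myotube and myoblast libraries did not overlap. It fell, with log2 values of -2.16 ± 0.35 over all libraries (adjusted p = 0.00239), -2.68 ± 0.25 in the deep set (adjusted p = 0.00152) and -1.18 ± 0.22 in the shallow set (adjusted p = 0.00841).

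In the steps from hexokinase to aldolase, the muscle phosphofructokinase rose and its liver form fell. Pfkm was at 233, 171 and 209 CPM in deep and 404 and 741 CPM in shallow myotubes, against 80.6 and 71.6 CPM in deep and 179 and 209 CPM in shallow myoblasts. Its log2 fold change was 1.46 ± 0.21 in the deep set (adjusted p = 0.00522) and 1.58 ± 0.29 in the shallow set (adjusted p = 0.00849), while over all libraries it missed the threshold (1.38 ± 0.47, adjusted p = 0.0577). Pfkl, the liver-type subunit, was at 70.7, 69, 37.4, 37.4 and 57.2 CPM in myotubes 1 to 5, against 148, 161, 135 and 115 CPM in myoblasts 1 to 4, with no overlap. The change was -1.36 ± 0.23 on the log2 scale over all libraries (adjusted p = 0.00304), -1.36 ± 0.32 in the deep set (adjusted p = 0.0233) and -1.38 ± 0.22 in the shallow set (adjusted p = 0.00464). Hk1, the widely expressed hexokinase, was at 81.5, 79.1, 60.4, 65.1 and 80.05 CPM in myotubes against 159, 155, 146 and 133 CPM in myoblasts, again without overlap. It fell in all 3 fits (all libraries, deep set and shallow set), at -1.02 ± 0.16 on the log2 scale over all libraries (adjusted p = 0.0021). Hk2, the hexokinase of insulin-responsive tissues, fell in the deep set (-1.29 ± 0.25, adjusted p = 0.0129) and had a log2 fold change of 0.34 ± 0.29 in the shallow set (adjusted p = 0.439). Its levels in shallow myoblasts, 34.5 and 32.9 CPM, were far under the 112 and 108 CPM of deep myoblasts. Pfkp, the platelet-type subunit, fell in the shallow set (-1.14 ± 0.29, adjusted p = 0.0266) and was at -0.43 ± 0.36 in the deep set (adjusted p = 0.407).

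Aldoa, the aldolase of muscle and most other tissues, was the most abundant member per kilobase of transcript in 5 of the 6 combinations of group and set, and stood second to Gapdh in deep wild-type myoblasts. It was at 2471, 2118, 2305, 2108 and 2926 CPM in wild-type myotubes against 1187, 1081, 1536 and 1525 CPM in wild-type myoblasts, and the groups did not overlap. It rose over all libraries (0.84 ± 0.21, adjusted p = 0.0169) and in the deep set (1.05 ± 0.26, adjusted p = 0.0289), and missed the threshold in the shallow set (0.74 ± 0.25, adjusted p = 0.0714). The call over all libraries was lost without wild-type myoblast 1 (adjusted p = 0.055) or 2 (adjusted p = 0.0581), and under scaling by library size alone (0.54, adjusted p = 0.102). Gpi1, the isomerase between hexokinase and phosphofructokinase, Pfkfb3, which makes the allosteric activator of phosphofructokinase, and Aldoc, the brain-type aldolase, were called in none of the 3 fits. Aldoc stayed between 0.192 and 2.62 CPM in all 13 libraries.

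Among the triose and phosphoglycerate steps Pgam2 rose in both sets. It was at 102, 61.2 and 123 CPM in deep and 221 and 278 CPM in shallow myotubes, against 14.4 and 14.9 CPM in deep and 133 and 137 CPM in shallow myoblasts. Its log2 fold change was 2.73 ± 0.37 in the deep set (adjusted p = 0.00431) and 0.91 ± 0.17 in the shallow set (adjusted p = 0.0097), and 1.07 ± 0.69 over all libraries (adjusted p = 0.309), where the deep myotubes lay under the shallow myoblasts. Pgam1 fell in the deep set (-1.11 ± 0.21, adjusted p = 0.0119), with 217, 269.5 and 225 CPM in myotubes against 466 and 583 CPM in myoblasts, and missed the threshold in the shallow set (-0.74 ± 0.23, adjusted p = 0.0506). Eno3, the muscle enolase, rose in the shallow set (1.01 ± 0.20, adjusted p = 0.0122), where it was at 1355 and 1641 CPM in myotubes against 734 and 779.5 CPM in myoblasts. In the deep set it was at 884, 545 and 676 CPM in myotubes against 836 and 880.1 CPM in myoblasts, and the groups overlapped (-0.26 ± 0.26, adjusted p = 0.487). Tpi1, triose phosphate isomerase, Gapdh and Pgk1 were called in none of the 3 fits, and Eno1 was too low to be tested within a set.

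Of the lactate genes, Ldhb fell in both sets. Ldhb, the heart-type lactate dehydrogenase subunit, was at 71.8, 39.5 and 54.7 CPM in deep and 19.6 and 22.8 CPM in shallow myotubes, against 156 and 135 CPM in deep and 57.2 and 49.6 CPM in shallow myoblasts. Its log2 fold change was -1.36 ± 0.27 in the deep set (adjusted p = 0.0134) and -1.32 ± 0.25 in the shallow set (adjusted p = 0.00958). Ldha, the muscle-type subunit, fell in the deep set (-0.96 ± 0.23, adjusted p = 0.0269) and was at 0.19 ± 0.27 in the shallow set (adjusted p = 0.644). Slc16a3, a lactate exporter of glycolytic fibres, was at 1.29, 3.33 and 4.47 CPM in deep and 7.23 and 15.9 CPM in shallow myotubes, against 3.36 and 3.3 CPM in deep and 2.71 and 2.6 CPM in shallow myoblasts. It rose in the shallow set (2.12 ± 0.46, adjusted p = 0.0158) and was at -0.10 ± 0.51 in the deep set (adjusted p = 0.905). Slc16a1, the widely expressed monocarboxylate transporter, was called in none of the 3 fits.

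Of the glycogen genes, Gyg and Pygm rose in both sets, and Pygb fell over all libraries and in the shallow set. Gyg, glycogenin, the protein primer of glycogen, was at 67.1, 60.1, 108, 78.8 and 94.7 CPM in myotubes 1 to 5, against 28.5, 28.5, 40.6 and 45.6 CPM in myoblasts 1 to 4, without overlap. It rose by 1.19 ± 0.23 over all libraries (adjusted p = 0.00561), by 1.49 ± 0.33 in the deep set (adjusted p = 0.0195) and 1.03 ± 0.19 in the shallow set (adjusted p = 0.00744). Pygm, the muscle glycogen phosphorylase, was at 198, 167 and 401 CPM in deep and 426 and 584 CPM in shallow myotubes, against 75.8 and 86 CPM in deep and 189 and 192 CPM in shallow myoblasts, and its log2 fold change was 1.69 ± 0.47 in the deep set (adjusted p = 0.041) and 1.43 ± 0.29 in the shallow set (adjusted p = 0.0122). Pygb, the brain form, was at 24.7, 35.3, 13.5, 23.2 and 33.8 CPM in myotubes, against 53.8, 60.9, 67.6 and 60.5 CPM in myoblasts, with no overlap. The log2 change of Pygb was -1.22 ± 0.28 over all libraries (adjusted p = 0.0109). Within the sets it was -1.19 ± 0.41 in the deep set (adjusted p = 0.0727) and -1.15 ± 0.28 in the shallow set (adjusted p = 0.0231). Gys1, the muscle glycogen synthase, rose in the deep set (1.79 ± 0.27, adjusted p = 0.00598), with 241, 235 and 279.9 CPM in myotubes against 76.7 and 72.6 CPM in myoblasts. In the shallow set it was at 253 and 516 CPM in myotubes against 186 and 212 CPM in myoblasts (0.97 ± 0.34, adjusted p = 0.0754). Phka1, the muscle regulatory subunit of phosphorylase kinase, rose in the deep set (0.85 ± 0.21, adjusted p = 0.0267) and missed the threshold in the shallow set (0.70 ± 0.25, adjusted p = 0.0764). Phkg1, its muscle catalytic subunit, stayed under 5 CPM and was called by edgeR in none of the 3 fits (1.21 ± 0.41 over all libraries, adjusted p = 0.057). It was called by DESeq2 (1.27 ± 0.43, adjusted p = 0.0169), by limma voom (1.14 ± 0.37, adjusted p = 0.0422) and with the set as a term (1.26 ± 0.37, adjusted p = 0.0201). Pygl, the liver phosphorylase, stayed under 3 CPM and was not called. The row named Pgm1 fell in the shallow set (-1.01 ± 0.28, adjusted p = 0.0389) and Pgm2 was called in none of the 3 fits. Both are phosphoglucomutases, and annotations have exchanged these 2 symbols, so which enzyme each row holds is not settled.

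Ckm, the muscle creatine kinase, had the largest fold change of all members in the deep set. It was at 51.6, 94.3 and 66 CPM in deep and 201 and 571 CPM in shallow myotubes, against 2.65 and 2.08 CPM in deep and 65.4 and 72.9 CPM in shallow myoblasts. The log2 fold change of Ckm was 4.93 ± 0.41 in the deep set (adjusted p = 0.00121) and 2.50 ± 0.43 in the shallow set (adjusted p = 0.00616). Over all libraries it missed the threshold (2.47 ± 1.07, adjusted p = 0.128), and the shallow myoblasts were as high as the deep myotubes. Reads of its antisense neighbour A930016O22Rik, at most 39 counts in a library, cannot be told apart from its own without the strand setting. Ckmt2, the mitochondrial creatine kinase of striated muscle, was at 0.762, 2.54 and 1.56 CPM in deep and 20.01 and 122 CPM in shallow myotubes, against 2.59 and 2.92 CPM in deep and 10.6 and 10.6 CPM in shallow myoblasts. It rose in the shallow set (2.75 ± 0.71, adjusted p = 0.029) and was at -0.72 ± 0.49 in the deep set (adjusted p = 0.311). Without wild-type myotube 5 its log2 fold change over all libraries was -0.13, against 2.15 ± 1.26 with it. Ckb, the brain form, was at 20.2, 33.9, 38.5, 42.8 and 122 CPM in myotubes and 13.5, 15.4, 34.2 and 28.5 CPM in myoblasts and was called in none of the 3 fits, while with the set as a term it rose (1.23 ± 0.44, adjusted p = 0.05 after rounding). Ckmt1, the ubiquitous mitochondrial form, had at most 10 counts in any library.

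**Figure D3:**
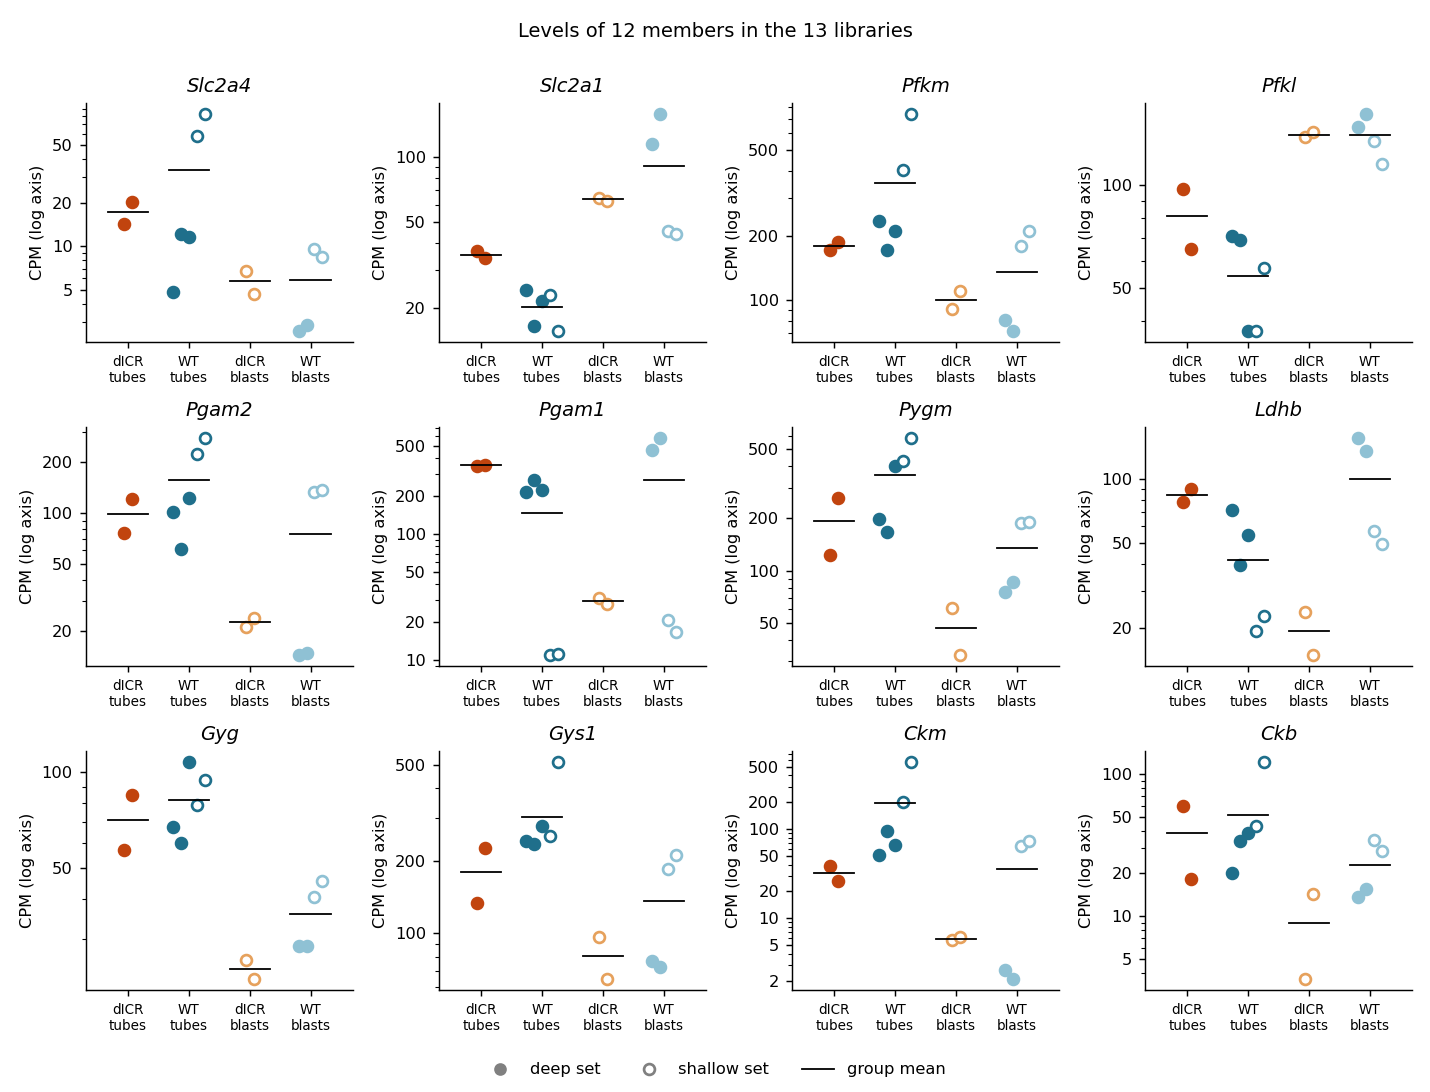
Level of 12 members in each of the 13 libraries, in CPM on a log axis; 1 point is 1 library, filled for the deep and open for the shallow set, and lines are group means. Slc2a1 and Pfkl are lower and Gyg is higher in every wild-type myotube library than in every wild-type myoblast library, Ckm and Pgam2 rise within each set from different starting levels, and Pgam1 follows the set.

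The second comparison asked how dICR/dICR cells differentiated. No member was called by edgeR over all libraries (0 of 35, against 0.145% of all genes). At an unadjusted p under 0.05 there were 11 of 35 members, against 3172 of 16537 genes. DESeq2 called 3 of 35 members, against 1163 of 16537 genes, and limma voom called no member, against 98 genes. The 2 groups lie in different sets, so the fold changes of Pgk1 (3.59 ± 1.78, adjusted p = 0.285) and Pgam1 (3.57 ± 1.81, adjusted p = 0.295), the 2 with the largest values, cannot be told apart from the set. Ckm was at 2.44 ± 1.57 in that fit (adjusted p = 0.404). When the set entered as a term, whose size the fit takes from the wild-type libraries, 13 of 35 members were called, against 7.63% of all genes. In that fit 11 members rose, against 4.8% of all genes, and 2 fell, against 2.84%. The 11 were Slc2a4, Pfkm, Aldoa, Pgam2, Pygm, Gys1, Gyg, Phka1, Ckm, Ckb and Ckmt2, and the 2 were Pgam1 and Pgm1. Ckm had the largest value, 5.99 ± 0.88 (adjusted p = 0.00412), with 38.4 and 25.9 CPM in dICR/dICR myotubes and 5.71 and 6.12 CPM in dICR/dICR myoblasts. Pgam2 was at 76 and 119.9 CPM in dICR/dICR myotubes and 21.3 and 23.9 CPM in dICR/dICR myoblasts (4.35 ± 0.62 with the set as a term, adjusted p = 0.00394). Gyg, with 56.9 and 84.8 CPM in dICR/dICR myotubes and 25.7 and 22.4 CPM in dICR/dICR myoblasts, was 1.56 ± 0.35 without the term (adjusted p = 0.0742) and 1.91 ± 0.37 with it (adjusted p = 0.012). Slc2a1 was at 36.8 and 34 CPM in dICR/dICR myotubes and 64.4 and 62.7 CPM in dICR/dICR myoblasts, and was not called. These values rest on the assumption that the set shifts all groups alike. Whether it shifts dICR/dICR libraries as it does wild-type ones was not tested. Within wild type the log2 difference between the sets, shallow minus deep, was not the same at both stages for some of these members. It was 4.86 in myoblasts and 2.31 in myotubes for Ckm, and 3.20 and 1.44 for Pgam2. For Ckmt2 it was 1.96 and 5.03, while for Pfkm it was 1.35 and 1.43.

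The third comparison set dICR/dICR myotubes against wild-type myotubes. No member was called over all libraries (0 of 35, against 0.556% of all genes) or within the deep set (0 of 33, against 0.709%). At an unadjusted p under 0.05 there were 4 of 35 members over all libraries, against 2773 of 16537 genes. In the deep set there were 8 of 33 members, against 2587 of 14952 genes. Over all libraries DESeq2 called 2 of 35 members, Hk1 and Slc16a3, against 1079 of 16537 genes. Limma voom called Hk1 alone of the members, against 440 genes. With a mean for each combination of group and set, a fit added after the data were seen, 2 of 35 members were called in the deep set, against 3.63% of all genes: Hk1 and Pfkp, both higher. They are named here after their values were seen. Hk1 was at 140 and 126 CPM in dICR/dICR myotubes, against 81.5, 79.1, 60.4, 65.1 and 80.05 CPM in wild-type myotubes 1 to 5, with no overlap. Its log2 fold change was 0.86 ± 0.20 over all libraries (adjusted p = 0.0726), 0.84 ± 0.20 within the deep set (adjusted p = 0.114) and 0.85 ± 0.20 in the added fit (adjusted p = 0.0418). Left-out libraries changed the call over all libraries in 1 case, without wild-type myotube 2, when Hk1 passed (0.86 ± 0.20, adjusted p = 0.0319). Pfkp was at 88.6 and 61.8 CPM in dICR/dICR myotubes, against 29.1, 39.9 and 17.2 CPM in deep and 39.5 and 65 CPM in shallow wild-type myotubes. The groups overlapped over all libraries but not in the deep set, and the log2 fold change there was 1.37 ± 0.36 (adjusted p = 0.131) and 1.39 ± 0.33 in the added fit (adjusted p = 0.0431).

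The members with the largest fold changes in myotubes over all libraries were Ckm, Ckmt2 and Slc16a3. Ckm was at 38.4 and 25.9 CPM in dICR/dICR myotubes, against 51.6, 94.3 and 66 CPM in deep and 201 and 571 CPM in shallow wild-type myotubes. Every dICR/dICR library lay under every wild-type library. The log2 difference was -2.61 ± 1.44 over all libraries (adjusted p = 0.373) and -1.15 ± 0.34 within the deep set (adjusted p = 0.164), and neither passed the threshold. Slc16a3 was at 1.53 and 1.45 CPM in dICR/dICR myotubes, against 1.29, 3.33, 4.47, 7.23 and 15.9 CPM in wild-type myotubes, and the groups overlapped (-2.08 ± 0.76 over all libraries, adjusted p = 0.209; -1.05 ± 0.53 in the deep set, adjusted p = 0.355). Ckmt2 was at 5.49 and 5.56 CPM in dICR/dICR myotubes, against 0.762, 2.54 and 1.56 CPM in deep and 20.01 and 122 CPM in shallow wild-type myotubes. Its difference changed sign between -2.38 ± 1.68 over all libraries and 1.74 ± 0.49 in the deep set (adjusted p = 0.483 and 0.153). Markers of cycling cells summed to 1620 and 734 CPM in dICR/dICR myotubes, against 107, 853, 29.7, 50.6 and 30.8 CPM in wild-type myotubes 1 to 5. The part of this, and of the lower sum of myotube markers, in the differences was not tested. Gm5506, the Eno1 copy, was at 13 and 20.2 CPM in dICR/dICR myotubes, against 205, 272 and 217 CPM in deep and 15.1 and 18.7 CPM in shallow wild-type myotubes. Unlike Pgk1 and Pgam1, its dICR/dICR myotubes thus stood near the shallow libraries, although they are deep.

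**Figure D4:**
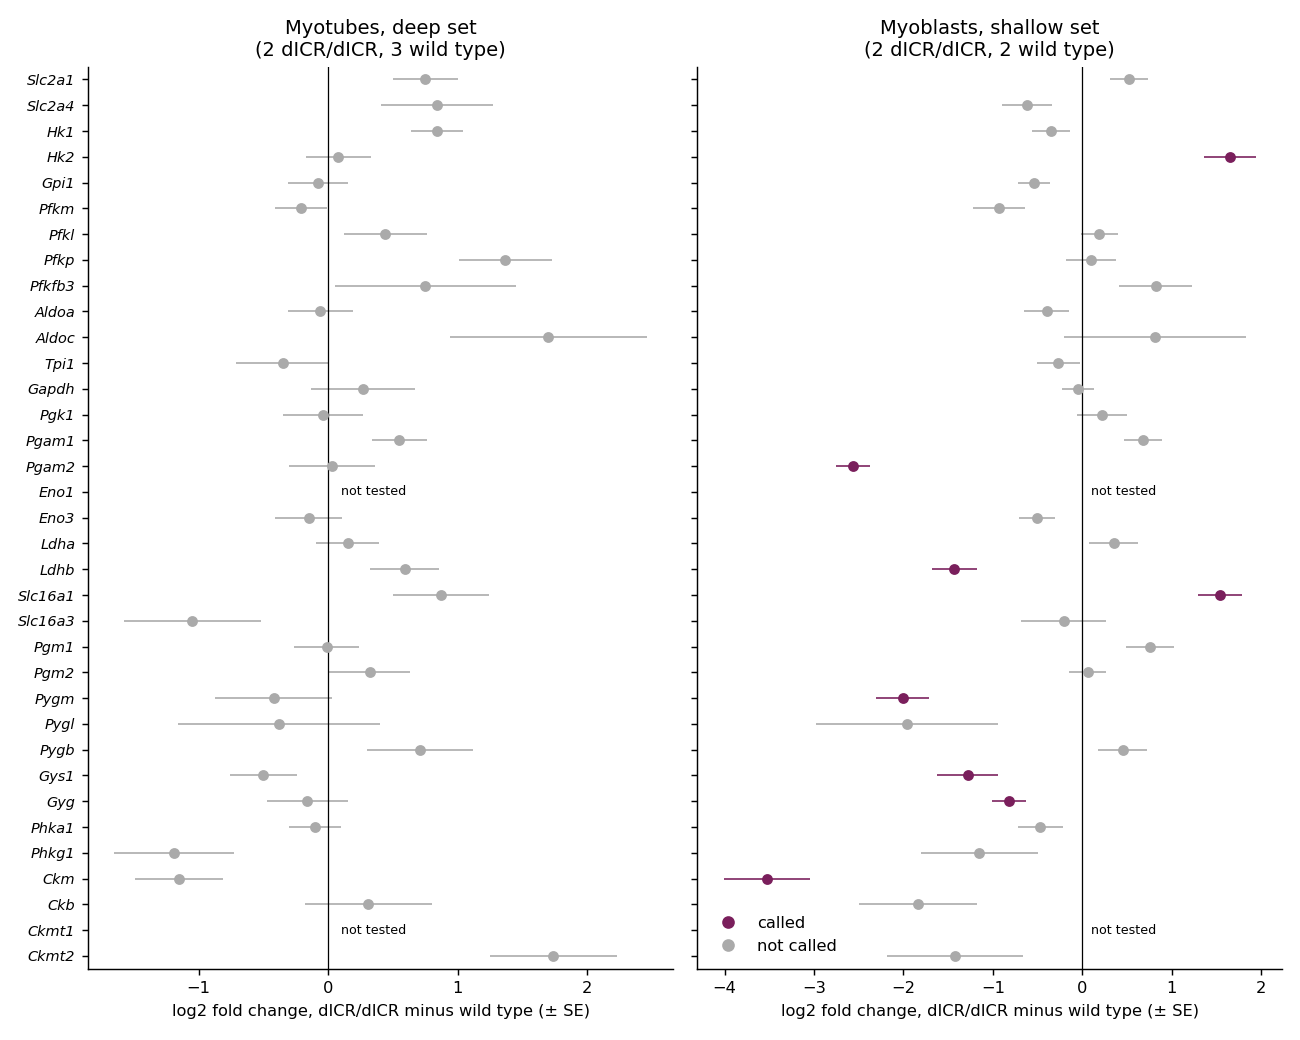
Log2 fold change (dICR/dICR minus wild type) with SE for the members in myotubes of the deep set (left) and in myoblasts of the shallow set (right). No member was called in the left panel, where Ckm and Phkg1 lie lowest and Ckmt2 and Aldoc highest, and 8 were called in the right panel, 2 above and 6 below 0.

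The fourth comparison set dICR/dICR myoblasts against wild-type myoblasts. No member was called over all libraries by edgeR (0 of 35, against 0.0302% of all genes). At an unadjusted p under 0.05 there were 4 of 35 members, against 2009 of 16537 genes. DESeq2 called 2 of 35 members (Ldhb and Slc16a1), against 443 of 16537 genes. Limma voom called no member, against 9 genes. Within the shallow set, which holds both dICR/dICR libraries and wild-type myoblasts 3 and 4, 8 of 33 members were called, against 21.6% of all genes. Of these 2 rose, against 11.3% of all genes, and 6 fell, against 10.3%. The share of members called was close to that of all genes. The fit with a mean for each group and set called 6 of 35, against 5.25% of all genes, without Gys1 and Gyg. The median log2 fold change of the members in the shallow set was -0.35, against 0.01 for all genes.

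Within the shallow set, 4 of the 11 muscle forms named above fell in dICR/dICR myoblasts (Ckm, Pgam2, Gys1 and Pygm), 1 rose (Hk2) and 6 did not pass. Aldoa, Ldha and Slc16a3, left out of the 11, did not pass either. The other members that fell were Gyg and Ldhb. Ckm was at 5.71 and 6.12 CPM in dICR/dICR myoblasts, against 65.4 and 72.9 CPM in shallow and 2.65 and 2.08 CPM in deep wild-type myoblasts. The log2 difference within the shallow set was -3.53 ± 0.48 (adjusted p = 0.00477), and the dICR/dICR libraries lay between the 2 pairs of wild-type libraries. Pgam2 was at 21.3 and 23.9 CPM in dICR/dICR myoblasts, against 133 and 137 CPM in shallow and 14.4 and 14.9 CPM in deep wild-type myoblasts (-2.56 ± 0.19, adjusted p = 0.00102). It too lay between the pairs. Gys1 was at 96.8 and 64.5 CPM in dICR/dICR myoblasts, against 186 and 212 CPM in shallow and 76.7 and 72.6 CPM in deep wild-type myoblasts (-1.28 ± 0.34, adjusted p = 0.034), and overlapped the deep pair. The other 3 lay below all 4 wild-type libraries. Pygm was at 60.8 and 32.6 CPM in dICR/dICR myoblasts, against 189 and 192 CPM in shallow and 75.8 and 86 CPM in deep wild-type myoblasts (-2.01 ± 0.30 in the shallow set, adjusted p = 0.00559). Gyg was at 25.7 and 22.4 CPM in dICR/dICR myoblasts, against 40.6 and 45.6 CPM in shallow and 28.5 and 28.5 CPM in deep wild-type myoblasts (-0.82 ± 0.19, adjusted p = 0.0212). Ldhb was at 23.8 and 15 CPM in dICR/dICR myoblasts, against 57.2 and 49.6 CPM in shallow and 156 and 135 CPM in deep wild-type myoblasts (-1.43 ± 0.25, adjusted p = 0.00857).

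The 2 that rose were Hk2 and Slc16a1. Slc16a1 was at 257 and 340.5 CPM in dICR/dICR myoblasts, against 114 and 95.6 CPM in shallow and 161 and 149 CPM in deep wild-type myoblasts. It lay above all 4 wild-type libraries, with a log2 difference of 1.54 ± 0.25 in the shallow set (adjusted p = 0.00728) and 1.20 ± 0.35 over all libraries (adjusted p = 0.22). Hk2 was at 98 and 111 CPM in dICR/dICR myoblasts, against 34.5 and 32.9 CPM in shallow and 112 and 108 CPM in deep wild-type myoblasts. Its difference in the shallow set was 1.65 ± 0.29 (adjusted p = 0.00903), and the deep wild-type libraries were as high as the dICR/dICR ones. Pgk1 and Pgam1 had the largest negative values over all libraries (-3.44 ± 1.68 and -3.20 ± 1.69, adjusted p = 0.432 and 0.452). Ckm was at -2.58 ± 1.48 there (adjusted p = 0.481). Within the shallow set Pgk1 and Pgam1 were at 0.22 ± 0.28 and 0.68 ± 0.21 (adjusted p = 0.615 and 0.058). Beside these differences, the sum of myotube markers was lower in dICR/dICR than in shallow wild-type myoblasts (values above), and Myog was at 402 and 151 CPM in dICR/dICR myoblasts, against 1179 and 1196 CPM in shallow and 146 and 142 CPM in deep wild-type myoblasts. Markers of cycling cells summed to 1670 and 1680 CPM in dICR/dICR myoblasts, against 698 and 644 CPM in shallow and 1940 and 1750 CPM in deep wild-type myoblasts. The part of these in the member differences was not tested. Ddx3y, a gene of the Y chromosome, was at 14.5 and 63.1 CPM in dICR/dICR myoblasts, against 0.25 and 0.15 CPM in shallow wild-type myoblasts, so RNA of the Y chromosome differed together with the genotype there. Ddx3y also differed between the sets in wild type, with 27.6 to 176 CPM in the 5 deep libraries and 0.15 to 0.46 CPM in the 4 shallow ones, so comparisons between the sets and fits with the set as a term carry this difference. Its part was not tested.

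The last comparison asked whether the differentiation changes differed between the genotypes. No gene was called by edgeR (0% of all genes, 0 of 35 members), and the smallest adjusted p of a member was 0.495. At an unadjusted p under 0.05 there were 4 of 35 members, against 1643 of 16537 genes. DESeq2 called 2 of 35 members (Hk1 and Ldhb), against 62 of 16537 genes, and limma voom called no gene. Hk1 had 1.32 ± 0.29 (adjusted p = 0.495) and Ldhb 3.36 ± 0.81 (adjusted p = 0.495), as log2 fold change in dICR/dICR minus that in wild type. With the set as a term these were 1.24 ± 0.30 (adjusted p = 0.202) and 2.06 ± 0.39 (adjusted p = 0.0736). Pgam1 and Pgk1, with 4.45 ± 2.10 and 4.10 ± 2.04 over all libraries, were at -0.05 ± 0.30 and -0.18 ± 0.46 with the set as a term.

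The balance between forms of an enzyme was read as the log2 ratio of 2 genes' counts within a library, which needs no scaling between libraries, and is given as a description. Pfkm over Pfkp was 0.95 and 1.59 in dICR/dICR myotubes, against 3.00, 2.10, 3.60, 3.34 and 3.50 in wild-type myotubes 1 to 5. It was -0.10 and -0.43 in dICR/dICR myoblasts, against 1.02, 0.85, 0.62 and 0.84 in wild-type myoblasts 1 to 4. The ratio was lower in dICR/dICR at both stages without overlap, and the deep and shallow wild-type myoblasts differed little in it. Pfkm over Pfkl was 1.72, 1.31, 2.48, 3.42 and 3.69 in wild-type myotubes, against -0.88, -1.17, 0.41 and 0.87 in wild-type myoblasts, and the groups did not overlap. Pygm over Pygb was 1.26 and 3.13 in dICR/dICR myotubes and 3.00, 2.24, 4.89, 4.18 and 4.09 in wild-type myotubes. At the earlier stage it was -0.15 and -1.68 in dICR/dICR myoblasts and 0.50, 0.50, 1.48 and 1.66 in wild-type myoblasts, so it was higher in myotubes of either genotype and lower in dICR/dICR myoblasts than in all wild-type myoblasts. Ldha over Ldhb was 4.29 and 4.69 in dICR/dICR myoblasts, against 2.67, 2.99, 2.69 and 2.66 in wild-type myoblasts, where it hardly differed between the sets although each gene alone did. After differentiation it was 3.01 and 2.59 in dICR/dICR myotubes and 3.00, 3.84, 2.96, 3.84 and 4.40 in wild-type myotubes, and the groups overlapped. Hk2 over Hk1 was -1.67 and -1.36 in dICR/dICR myotubes, against -0.68, -0.69, -0.93, -1.17 and -0.52 in wild-type myotubes, lower without overlap. Before differentiation it was 0.12 and -0.18 in dICR/dICR myoblasts and -0.50, -0.53, -2.07 and -2.01 in wild-type myoblasts, higher without overlap, and the wild-type sets differed. Slc16a3 over Slc16a1 was -6.64 and -7.18 in dICR/dICR myoblasts, against -5.56, -5.48, -5.27 and -5.04 in wild-type myoblasts, with no overlap. Its myotube groups overlapped, at -7.01 and -6.21 in dICR/dICR myotubes and -6.43, -4.62, -3.55, -3.88 and -2.15 in wild-type myotubes. Ckm over Ckb was -0.63 and 0.51 in dICR/dICR myotubes, against 1.35, 1.48, 0.78, 2.22 and 2.22 in wild-type myotubes, with no overlap. The myoblast groups overlapped, at 0.64 and -1.18 in dICR/dICR myoblasts and -2.34, -2.87, 0.93 and 1.35 in wild-type myoblasts, and the difference of their means had the other sign (0.46). Of the 13 pairs, Slc2a4 over Slc2a1, Pfkm over Pfkl, Aldoa over Aldoc, Pygm over Pygl and Ckmt2 over Ckmt1 overlapped between genotypes at both stages. With 2 dICR/dICR libraries against 4 or 5 wild-type libraries, chance alone can set some pairs apart. Pgam2 over Pgam1 and Eno3 over Eno1 are not read here because of the shared sequence of Pgam1 and Eno1.

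**Figure D5:**
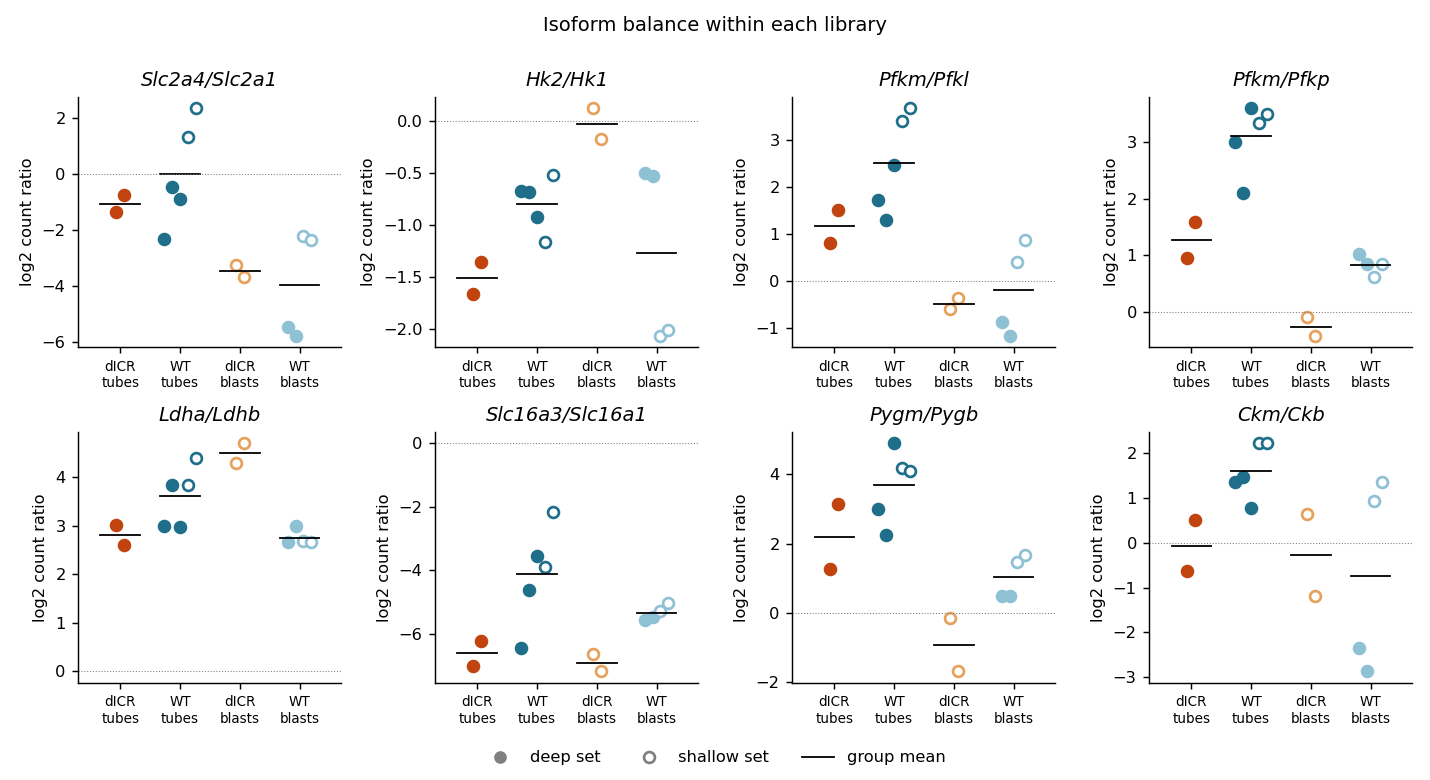
Log2 ratio of the counts of 2 forms within each library for 8 pairs, by group; 1 point is 1 library, filled for the deep and open for the shallow set, and lines are group means. In the Pfkm/Pfkp panel the dICR/dICR points lie under the wild-type points of the same stage, and in the Ldha/Ldhb panel the dICR/dICR myoblasts lie above the wild-type ones.

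Other genes of these pathways were counted from a list of 64, of which all were in the table and 58 were tested. In wild-type differentiation over all libraries 9 of 58 rose (8.86% of all genes rose), 4 fell (10.2% of all genes fell) and 45 did not pass. Within the deep set 12 rose and 4 fell of 55, and within the shallow set 10 rose and 3 fell of 48. Those that rose included Phka2 (2.08 ± 0.29, adjusted p = 0.00124) and Phkb (1.41 ± 0.23, adjusted p = 0.00223), subunits of phosphorylase kinase. Ugp2, which makes the UDP-glucose used for glycogen, rose by 0.95 ± 0.20 (adjusted p = 0.00813), and Gatm, the first enzyme of creatine synthesis, by 2.02 ± 0.54 (adjusted p = 0.0227). Pgm5, a phosphoglucomutase relative found at adherens junctions, rose by 3.67 ± 0.46 (adjusted p = 0.000715). Gaa, Ppp1r3d and Gsk3b also rose, by 0.70 to 1.92. Of the 4 pentose phosphate genes on the list 3 fell: G6pdx (-1.22 ± 0.28, adjusted p = 0.0123), Pgd (-1.13 ± 0.31, adjusted p = 0.025) and Tkt (-1.29 ± 0.40, adjusted p = 0.042). Taldo1 was at -0.16 ± 0.20 (adjusted p = 0.625). G6pdx and Tkt missed the threshold in the deep set (adjusted p = 0.0501 and 0.177), and Pgd missed it in the shallow set (-0.49 ± 0.23, adjusted p = 0.158). The other gene that fell was Tigar, listed in the table as 9630033F20Rik, a fructose bisphosphatase induced by p53, at -1.10 ± 0.18 (adjusted p = 0.0023). In myotubes Tigar was higher (1.43 ± 0.21, adjusted p = 0.0181) and Pgm5 lower (-3.52 ± 0.62, adjusted p = 0.035) in dICR/dICR than in wild type. Within the deep set Tigar missed the threshold (1.47 ± 0.26, adjusted p = 0.0537) and Pgm5 passed it (-3.10 ± 0.29, adjusted p = 0.0122). In the other 3 comparisons none of the 58 was called over all libraries. Between genotypes in shallow myoblasts 5 rose and 11 fell of 48, where 21.6% of all genes were called. In dICR/dICR differentiation with the set as a term 7 of 58 rose and 0 fell, against 4.8% and 2.84% of all genes.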

How the data were processed

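RNA was depleted of ribosomal RNA and sequenced, per the labels. The authors deposited whole-number counts per gene for 13 libraries. Per the submitters' processing notes TopHat2, HTSeq and the mouse build mm9 were used; the sources used here do not give versions, annotation, counting mode or strandedness. Library totals were 5.31 to 56.44 M counts, so low genes are less precise in the shallow libraries.

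Genes were kept by edgeR's filterByExpr (minimum count 10, minimum total 15), which left 16537 of 23366 genes and all 35 members. Counts were scaled by TMM and fitted with edgeR's quasi-likelihood test (edgeR 4.0.16, R 4.3.3) with 1 mean for each of the 4 groups. P-values were adjusted by the Benjamini-Hochberg method over all genes tested, with calls at 0.05. For edgeR, SE is the log2 fold change divided by the root of the F statistic, and fold changes use its default prior count. DESeq2 gave its own SE, and for limma voom SE is the log2 fold change divided by t. A prior count of 2 was added for the log2 ratios of forms. The same prior count was used for log2 levels compared between the sets and between same-numbered libraries. The steps were tested on simulated data. Within-set fits had their own filter and scaling, with the sets divided at 20 M counts. Alternatives were DESeq2 1.42.0, limma 3.58.1 (voom), other scalings and filters, the set as a term, the replicate number as a block and leaving out each library. The fit with a mean for each group and set was added after seeing the data.

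Replicates differed by more than sampling noise (chi-square per degree of freedom 4.67 to 369 over 18 pairs). The lowest value was that of wild-type myoblasts 3 and 4, the only wild-type libraries in the myoblast comparison within the shallow set. The 2 dICR/dICR myoblast libraries had 34.3. The members, lists and tests were chosen with earlier results of these data known. In each comparison, values are given for every member called over all libraries or within a set, and for the 3 with the largest fold change. Other members given values fall outside this rule and are to be read as chosen after their values were seen. Among them are Pgam2, Gyg and Slc2a1 in dICR/dICR differentiation, Hk1 for the difference, and Phkg1 and Ckb in wild-type differentiation. The same holds for Gm5506 and Ddx3y, and for Myog where it is given apart from its list. Shared coding pieces and pseudogene counts come from GENCODE M21 on GRCm38 and promoters from RefSeq on GRCm38.p6, while the counts rest on mm9, so no coordinates of the counted genes are given. Some items are not reported here.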

Additional observations from a re-analysis of the deposited data

Results flagged for a closer look

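In wild-type myotubes, 6 member levels had 1 library far from the other 4 by Dixon's criterion, among 70 groups of at least 4 libraries looked at; chance alone sets some groups apart at this criterion. Wild-type myotube 1 had 1110 CPM of Tpi1, against 436 to 629 CPM in the other libraries. Wild-type myotube 5, a shallow library, accounts for the remaining 5. It had 571 CPM of Ckm, against 51.6 to 201 CPM in the others, 122 CPM of Ckmt2, against 0.762 to 20 CPM, and 122 CPM of Ckb, against 20.2 to 42.8 CPM. It also had 516 CPM of Gys1, against 235 to 280 CPM, and 87 CPM of Phka1, against 50.6 to 56.5 CPM. What sets that library apart for these 5 genes was not tested.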

How the results depend on the processing

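Genes called in myoblasts between genotypes numbered 5 as reported, 1 with no filter, 3 with median-of-ratios scaling, 443 by DESeq2, 9 by limma voom, 333 with the set as a term, 2717 within the shallow set and 868 with set-by-group means. Members called there numbered 2 by DESeq2, 4 with the set as a term, 8 within the shallow set and 6 with set-by-group means. In myotubes 92 genes became 1079 (DESeq2), 440 (voom), 425 (set as a term) and 601 (set-by-group means), with 2, 1, 2 and 2 members. In wild-type differentiation 7 members became 14 (DESeq2), 12 (voom), 19 (set as a term), 16 (each set) and 17 (set-by-group means, deep). There 3158 genes became 4310 (DESeq2), 3969 (voom), 5267 (set as a term), 3318 (deep set) and 2845 (shallow set). With set-by-group means they became 1154 (shallow) and 4804 (deep). In dICR/dICR differentiation 24 genes became 41 (no filter), 72 (1 CPM in 4 libraries), 1163 (DESeq2, 3 members), 98 (voom) and 1262 (set as a term, 13 members). The difference between the changes gave 62 genes and 2 members by DESeq2 and 16 genes with the set as a term. The causes were not tested.

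In wild-type differentiation same-numbered libraries deviated together in 3 of 4 pairs (correlations 0.53, 0.55 and 0.69) and not in the pair numbered 3, whose libraries lie in different sets (-0.50). The correlations were 0.06 and -0.04 between genotypes in myoblasts, 0.07 and -0.30 in myotubes and -0.37 and -0.37 in dICR/dICR differentiation. The 3 wild-type pairs that deviated together each lie within a set, so their correlations cannot tell pairing by number from the difference between the sets. Differently numbered libraries of the same set were not compared. Whether the numbers pair the libraries is therefore not decided, and they were not taken to do so. With the replicate number as a block, genes called were 0 and 3 between genotypes in myoblasts and in myotubes, 3063 and 100 in wild-type and dICR/dICR differentiation and 0 for the difference, with 10 members in wild-type differentiation and 0 elsewhere.

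Leaving out each library gave 0 to 6 genes and 0 members in myoblasts, 1 to 919 genes and 0 to 1 members in myotubes, 1769 to 3574 genes and 5 to 11 members in wild-type differentiation, 0 to 78 genes and 0 members in dICR/dICR differentiation and 0 for the difference.

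Signs reversed in myoblasts for Pgk1 (0.09 with the set as a term, 0.22 shallow, 0.20 set-by-group) and Pgam1 (0.55, 0.68 and 0.66). In myotubes Ckmt2 reversed (0.79 voom, 0.97 set as a term, 1.84 block, 1.74 deep, 1.75 set-by-group). In wild-type differentiation Eno3 (-0.26 deep, -0.29 set-by-group), Slc16a3 (-0.10 and -0.13), Ckmt2 (-0.32 voom, -0.85 block, -0.72 deep, -0.75 set-by-group, -0.13 without myotube 5, and up to 2.48 without another library), Hk2 (0.34 shallow, 0.32 set-by-group) and Ldha (0.19 and 0.17) reversed. With the set as a term, Pgk1 (-0.78) and Pgam1 (-1.04) reversed in dICR/dICR differentiation, as did Pgam1 (-0.05) and Pgk1 (-0.18) for the difference. Of the other values of named members, 832 kept direction and side of the threshold, 95 passed it and 20 lost it. Library-size scaling moved the median of all genes by 0.14 between genotypes in myoblasts, 0.13 in myotubes, -0.28 in wild-type and -0.29 in dICR/dICR differentiation.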
